A study of Mus musculus with 22 samples.

Results

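The genes described here are 10 components of the growth hormone and insulin-like growth factor (IGF) axis in mouse liver. They include the receptor gene Ghr, the transcription factor genes Stat5a and Stat5b, the feedback inhibitor genes Socs2 and Cish, and the hormone gene Igf1. The others are Igfbp1, Igfbp2 and Igfbp4, whose products bind IGF in blood, and Igfals, whose product is part of an IGF complex in serum. All 10 genes were chosen by name, and each array feature (probe set) whose only assigned gene symbol is 1 of these names was taken. This gave 27 probe sets of the 45101 on the array, and 10 genes of the 18194 that have a probe set of their own. Male C57BL6 mice, 8 weeks old, were injected intraperitoneally with diclofenac sodium, an anti-inflammatory drug, at 30 mg/kg every day, or with an equal amount of saline. Livers were taken on day 1, after a single dose, on day 3 or on day 14. Total RNA of each liver was hybridised to an Affymetrix whole-genome mouse array, with 3 arrays for each of the saline and diclofenac groups at day 1, 3 at day 3 and 5 at day 14, 22 in all. All mice were of the same strain and sex, and no group carried a transgene or deletion.

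Growth hormone from the pituitary binds its receptor on hepatocytes, where the kinase JAK2 phosphorylates the transcription factors STAT5A and STAT5B. These factors switch on Igf1 and Igfals, whose products circulate together, and also Socs2 and Cish, whose products dampen the signal in turn. IGF binding proteins carry IGF in blood and limit its access to receptors, and liver Igfbp1 is known to fall with insulin and to rise with fasting and stress.

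Promoters were examined for a pair of short motifs, because STAT5 and the insulin-regulated FOXO factors act on several of these genes. The sequences shown are RefSeq promoters of build GRCm38.p6, from 250 bases before the start of transcription to 50 after it, for the 3 members that hold a motif. Capitals mark TTCNNNGAA, the STAT5 motif, in Cish and Igfals, and CAAAACA, the core of the insulin response element, in Igfbp1. They lie on the plus strand at chr9:107296409-107296708 (Cish), chr17:24877594-24877893 (Igfals) and chr11:7197537-7197836 (Igfbp1).
Cish: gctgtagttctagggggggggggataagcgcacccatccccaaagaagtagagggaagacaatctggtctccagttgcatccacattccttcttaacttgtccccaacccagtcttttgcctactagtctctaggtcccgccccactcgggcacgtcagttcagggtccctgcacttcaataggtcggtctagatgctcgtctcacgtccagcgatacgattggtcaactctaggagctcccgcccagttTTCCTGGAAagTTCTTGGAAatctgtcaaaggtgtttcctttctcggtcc
Igfals: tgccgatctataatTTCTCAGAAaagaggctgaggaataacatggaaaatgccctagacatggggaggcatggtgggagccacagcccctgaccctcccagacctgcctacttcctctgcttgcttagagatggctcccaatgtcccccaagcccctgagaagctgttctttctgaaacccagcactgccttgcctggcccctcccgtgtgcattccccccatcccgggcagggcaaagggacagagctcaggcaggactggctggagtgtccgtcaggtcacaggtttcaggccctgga
Igfbp1: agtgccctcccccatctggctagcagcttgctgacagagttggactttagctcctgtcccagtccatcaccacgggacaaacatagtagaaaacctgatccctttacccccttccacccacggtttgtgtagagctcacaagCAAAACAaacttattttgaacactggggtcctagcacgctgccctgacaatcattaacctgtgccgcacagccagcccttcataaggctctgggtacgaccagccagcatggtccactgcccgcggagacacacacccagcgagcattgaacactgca
Both strands were searched, and no window of the members held both motifs. TTCNNNGAA occurred in 8.30% and CAAAACA in 6.28% of 32851 promoters. Among the members, 9 have a promoter entry, in 15 windows, of which 3 held TTCNNNGAA and 1 held CAAAACA. In Cish the STAT5 motif stood at the start site itself and again 11 bases after it, and in Igfals it stood 236 bases before the start site shown and 58 before an alternative start. The match in Igfbp1 stood 108 bases before its start. A match describes the letters in the window and is not a measured binding site.

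Array signals were on a linear scale set to a common level by the authors, with medians of 75.2 to 89.9, and were compared as log2 values within a probe set. Signals of different probe sets are not comparable, so no gene is ranked against another by level. The 10 hepatocyte markers were all detected, with summed signals between 394467 and 843564 over the 22 livers. A bulk liver signal cannot tell fewer cells of a type from less RNA per cell. The p-values measure the spread between these livers, and precision is set by how few arrays each group holds.

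In 2 diclofenac treated livers, replicate 2 of day 1 and replicate 3 of day 14, some members stood far from the other livers. In day 1 replicate 2 these were Igfbp1 and Igfals, at 3.78 and -1.46 on the log2 scale from the saline mean of that day. Of the 10 members, 5 differed more than 2-fold from the saline mean of their day in day 14 replicate 3 and 3 in day 1 replicate 2, against 0 to 2 in each of the other 9 diclofenac treated livers. The summed signal of 8 neutrophil markers was 24272 in day 14 replicate 3 and 21729 in day 1 replicate 2, against 673 to 3050 in the other diclofenac treated livers and 350 to 1154 in saline livers. Day 14 replicate 3 also had the lowest mean correlation with its own group (0.878). Both livers were singled out after the data were seen, and results that rest on them are given with and without them.

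Ghr and Cish were lower in every diclofenac treated liver than in every saline liver at day 1 and again at day 3. At day 1 Igfals and Socs2 were lower without overlap and Igfbp1 was higher without overlap. At day 14 the groups overlapped for all 10 genes. None of these single-day differences passed limma's test after adjustment over all genes. At day 1, 0 of 10 members and 0 of 12884 genes passed (0%), and 4 members had an unadjusted p under 0.05 against 13% of all genes. At day 3, 0 of 10 members and 26 of 12884 genes passed (0.202%), and 2 members had an unadjusted p under 0.05 against 10.8% of all genes. At day 14, 0 of 10 members and 0 of 11884 genes passed (0%), and 1 member had an unadjusted p under 0.05 against 10.8% of all genes. By the methods' t-test, with an unadjusted threshold of 0.05 and a minimum of 1.5-fold, 1 member (Cish, day 1) was counted at day 1, 0 at day 3 and 0 at day 14, among 188, 321 and 284 genes. Groups that did not overlap were found for 5 of 10 members against 16.3% of all genes at day 1, 2 of 10 against 20% at day 3 and 0 of 10 against 3.78% at day 14.

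**Figure D1:**
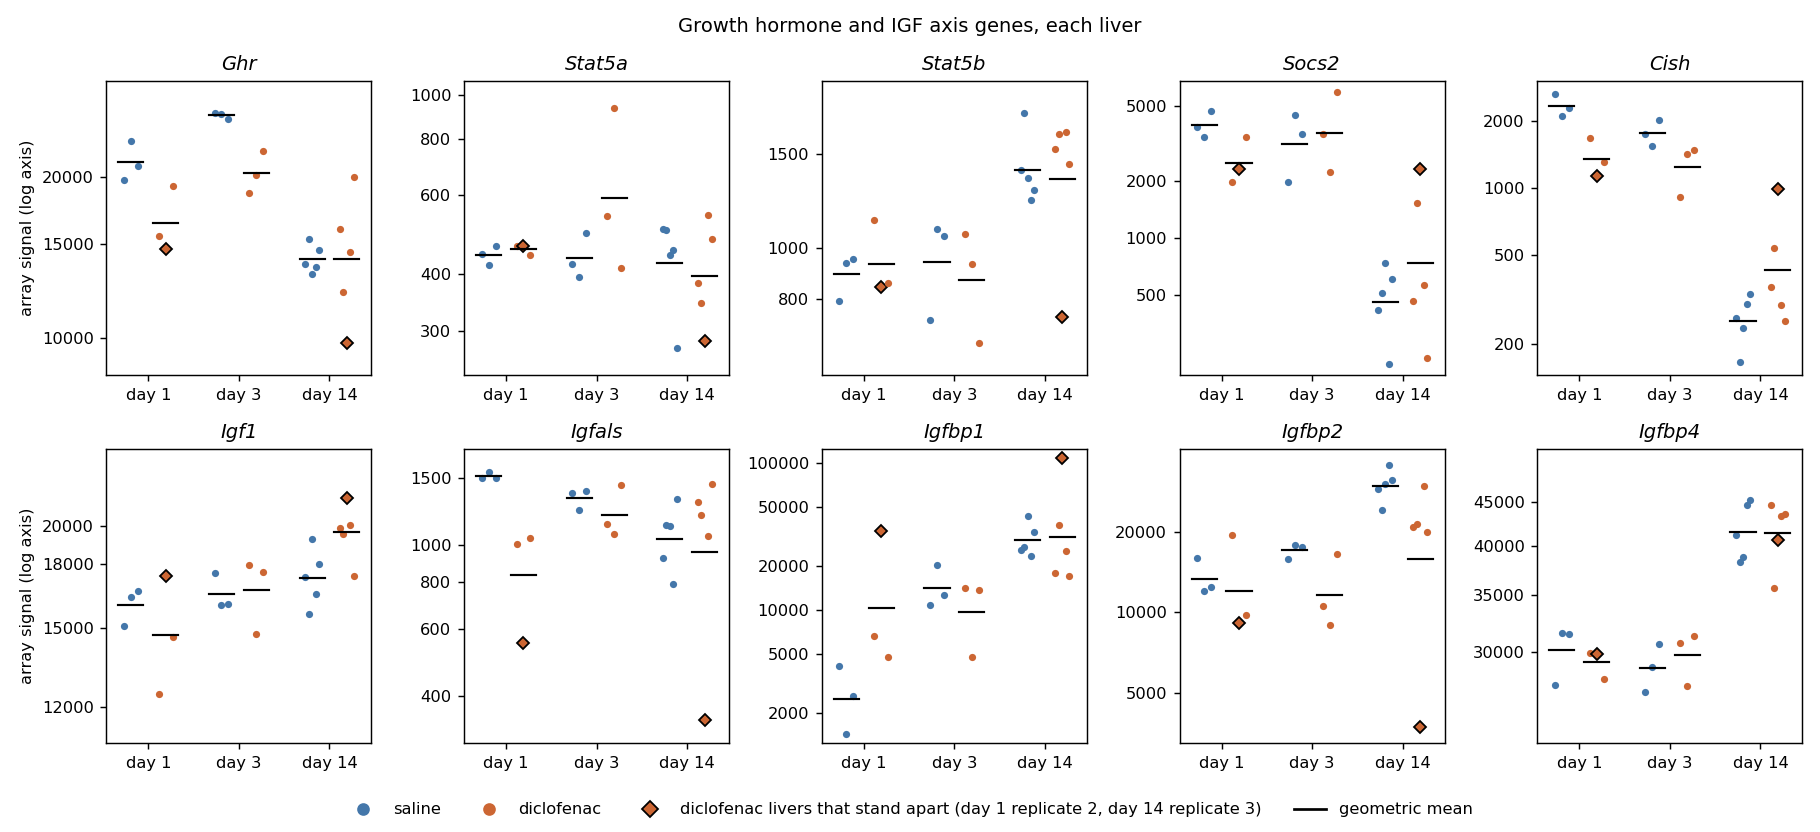
Array signal (log axis) of the brightest probe set of each of the 10 genes, 1 point per liver, by day; blue points are saline, orange points diclofenac, outlined diamonds are the 2 diclofenac treated livers that stand apart, and bars are geometric means. The saline and diclofenac points of Ghr and Cish do not overlap at days 1 and 3, and Socs2 and Cish are far lower at day 14 than at days 1 and 3 in saline livers.

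Ghr (chr15:3317755-3583352 of GRCm38.p6) encodes the receptor through which growth hormone acts on hepatocytes. At day 1 its signals were 19813, 23394 and 21028 in saline livers and 15559, 14689 and 19288.5 in diclofenac treated livers. At day 3 they were 26410, 26305 and 25754 with saline and 18720, 20230 and 22440 with diclofenac. All 3 diclofenac treated livers lay below all 3 saline livers on each of these days, a pattern shared with Cish and found in 184 of 12884 genes (1.43%). The log2 difference was -0.38 at day 1 (standard error 0.11, adjusted p = 0.263, limma) and -0.36 at day 3 (0.11, adjusted p = 0.239), or 1.30-fold and 1.28-fold lower. The exact permutation test gave p = 0.1 on each day, the smallest that 3 livers against 3 allow. Without replicate 2 of day 1 the day 1 difference was -0.30 (adjusted p = 0.590, limma). At day 14 signals were 13778, 15325, 13187, 13581 and 14614 in saline livers and 16035, 12201, 9764, 14471 and 20040 in diclofenac treated livers. The diclofenac treated livers of day 14 lay on either side of the saline livers, and their mean difference was 0.00 (standard error 0.17, limma), or 0.13 without replicate 3.

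Ghr has 2 further probe sets. At days 1 and 3 all 3 were lower with diclofenac, by -0.89 to -0.37 on the log2 scale at day 1 and by -0.36 to -0.10 at day 3. The -0.89 and the -0.10 come from the probe set of lowest signal, whose groups overlapped on both days. At day 1 its signals were 161, 476 and 170 with saline and 169, 83.5 and 147 with diclofenac. Its day 1 mean difference thus leans on the saline liver at 476 and on replicate 2 of the diclofenac group. At day 14 the 3 lay between -0.24 and 0.00.

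Stat5a (chr11:100859351-100885169) and Stat5b (chr11:100780731-100859004) encode the factors that carry the growth hormone signal to the nucleus. Stat5a signals at day 1 were 444, 419 and 462 in saline livers and 462, 464 and 442 in diclofenac treated livers. At day 3 they were 422, 394 and 495 with saline and 539, 936 and 412 with diclofenac, where replicate 2 of the diclofenac group alone stood above the rest. At day 14 they ranged from 274 to 504 with saline and from 285 to 541 with diclofenac. Stat5a differed by 0.05 at day 1, 0.45 at day 3 and -0.10 at day 14 on the log2 scale (standard error 0.23, 0.23 and 0.21, with adjusted p of 0.954, 0.506 and 0.879, limma), and the day 3 value was 0.12 without its replicate 2. Stat5b signals lay between 731 and 1085 in the 6 saline livers of days 1 and 3 and between 661 and 1129 in the 6 diclofenac treated livers. At day 14 they were 1403, 1794, 1356, 1233 and 1283 with saline and 1532, 1637, 743, 1650 and 1439 with diclofenac. Replicate 3 of the diclofenac group alone lay below the saline range at day 14. The log2 differences of Stat5b were 0.07, -0.12 and -0.06 (standard errors 0.20, 0.20 and 0.21), and 0.16 at day 14 without replicate 3. Neither gene differed beyond the spread between livers on any day, and the remaining probe set of Stat5b gave -0.36, 0.16 and -0.08. The second probe set of Stat5a was below the array median in all livers of day 1, with signals of 3.83 to 32.0 with saline and 29.2 to 58.1 with diclofenac, and was not tested at days 1 and 3. Averaging it with the first moved the day 1 difference of Stat5a from 0.05 to 1.06, and at day 14 its own difference was -0.44 (adjusted p = 0.530, limma).

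Cish (chr9:107296659-107302784), whose promoter holds a pair of STAT5 motifs, encodes an SH2 protein that is induced by STAT5 and blocks its docking on cytokine receptors. Its signals at day 1 were 2638, 2121 and 2302 in saline livers and 1687, 1131 and 1309 in diclofenac treated livers. At day 3 they were 1746, 1553 and 2017 with saline and 912, 1421 and 1491 with diclofenac. On both days the groups did not overlap, and the diclofenac treated livers were 1.73-fold and 1.41-fold lower. The log2 difference was -0.79 at day 1 (standard error 0.19, adjusted p = 0.231, limma) and -0.50 at day 3 (0.19, adjusted p = 0.351), with exact permutation p = 0.1 on each day. At day 14 signals were 262, 166, 236, 302 and 337 with saline and 361, 537, 988, 298 and 253 with diclofenac. Here 3 of 5 diclofenac treated livers stood above all saline livers and the others lay among them. The log2 difference at day 14 was 0.76 (standard error 0.34, unadjusted p = 0.0468, adjusted p = 0.455, limma) and 0.46 without replicate 3. By the exact permutation test it had p = 0.0873.

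Socs2 (chr10:95383903-95417321) encodes a suppressor of cytokine signalling that targets the growth hormone receptor. At day 1 its signals were 3874, 3431 and 4694 in saline livers and 1979, 2333 and 3412 in diclofenac treated livers, so that the highest treated liver lay just below the lowest saline liver. At day 3 they were 1991, 4490 and 3553 with saline and 3557, 2241 and 5913 with diclofenac, and the groups overlapped. At day 14 they were 415, 513, 738, 215 and 608 with saline and 466, 1536, 2322, 565 and 232 with diclofenac. Replicates 2 and 3 of the diclofenac group stood above every saline liver of that day. Socs2 differed by -0.66 at day 1, 0.19 at day 3 and 0.68 at day 14 on the log2 scale (standard error 0.34, 0.34 and 0.57, with adjusted p of 0.436, 0.889 and 0.676, limma), and the last was 0.27 without replicate 3. Of its 6 probe sets, 5 could be tested at day 1 and all 5 were lower with diclofenac, by -1.31 to -0.06. Both ends of this range come from probe sets near background, which were above the array median in only 7 and 8 of the 22 arrays. The one at -1.31 had signals of 74.5, 91.1 and 107 with saline and 48.9, 19.4 and 50.0 with diclofenac.

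Igf1 (chr10:87858265-87937047) encodes the hormone that the liver releases under growth hormone. Its signals at day 1 were 15109, 16374 and 16650 in saline livers and 12456, 17405 and 14647 in diclofenac treated livers. At day 3 they were 17505, 16033 and 16083 with saline and 17937, 14750 and 17573 with diclofenac. With this probe set the groups overlapped on both days, with log2 differences of -0.13 and 0.01 (standard error 0.12, adjusted p = 0.668 and 0.984, limma). At day 14 signals were 17356, 15621, 19284, 16528 and 17970.5 with saline and 19923, 19572, 21653, 20084 and 17365 with diclofenac. In 4 of 5 diclofenac treated livers Igf1 stood above all saline livers, a difference of 0.18 (standard error 0.10, adjusted p = 0.515, limma) or 1.14-fold. The exact permutation test at day 14 gave p = 0.0397 (adjusted p = 0.359 over all genes). All 4 probe sets of Igf1 were lower with diclofenac at day 1, by -0.47 to -0.13, and all 4 were higher at day 14, by 0.18 to 0.36. At day 1 a further probe set had 13859 to 15198 with saline and 8874 to 12969 with diclofenac, without overlap. Another had 5094 to 5212 against 2528 to 4652, also without overlap. The last overlapped, at 11929 to 13941 against 8184 to 12180. Of all genes, 16.3% did not overlap on that day.

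Igfals (chr17:24877844-24882011) encodes the acid-labile subunit, which holds IGF in a long-lived complex in serum. At day 1 its signals were 1504, 1557 and 1502 in saline livers and 1003, 553 and 1044 in diclofenac treated livers. The 3 saline livers lay close together, and all 3 treated livers lay below them. The log2 difference was -0.87 (standard error 0.20, adjusted p = 0.231, limma), or 1.82-fold lower, with exact permutation p = 0.1. Without replicate 2 it was -0.57 (adjusted p = 0.394, limma). At day 3 signals were 1369, 1237 and 1383 with saline and 1132, 1068 and 1437 with diclofenac, with a log2 difference of -0.14 (standard error 0.20). At day 14 they were 921, 1130, 1119, 788 and 1317 with saline and 1296, 1200, 345, 1055 and 1442 with diclofenac. The treated livers of day 14 lay within or just above the saline range except replicate 3, and the difference was -0.11 with it and 0.26 without it.

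**Figure D2:**
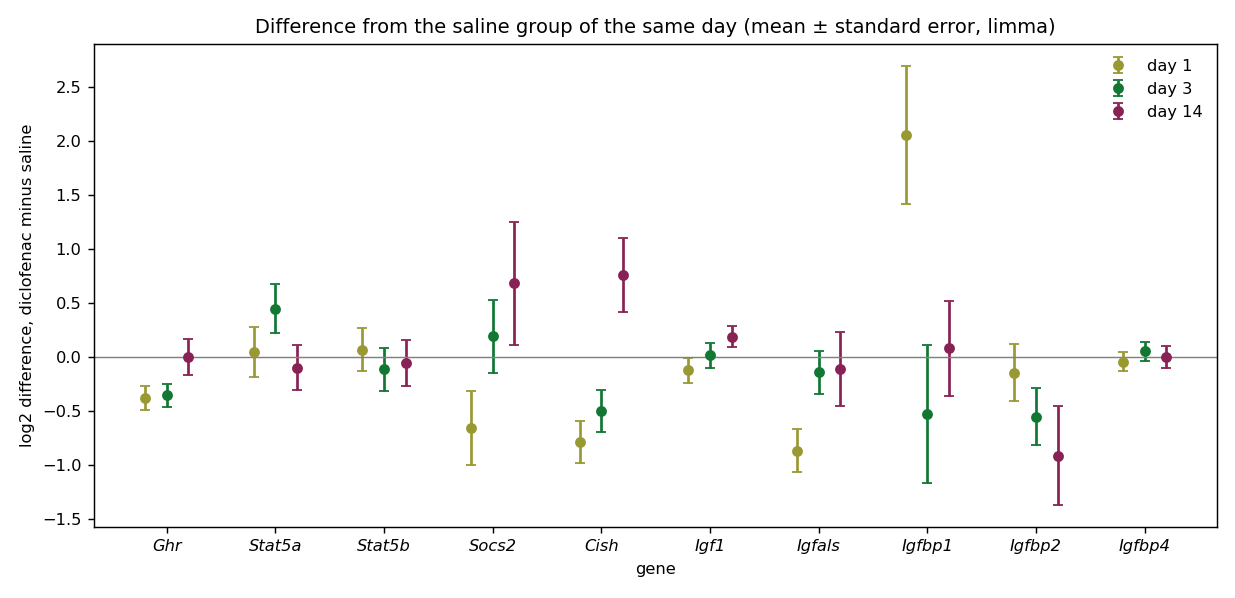
Log2 difference between diclofenac treated and saline livers of the same day for each of the 10 genes, in 3 colours for days 1, 3 and 14; points are limma estimates and bars standard errors. Igfbp1 at day 1 (2.05) is the highest point, and none of the 30 values passed the test after adjustment.

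Igfbp1 (chr11:7197787-7202546), whose promoter holds the insulin response element core, encodes a binding protein that responds within hours to fasting, insulin and stress. At day 1 its signals were 4151, 1428 and 2592 in saline livers and 6663, 34187 and 4821 in diclofenac treated livers. All treated livers lay above all saline livers, and replicate 2 lay far above the other treated livers. The log2 difference was 2.05 (standard error 0.64, adjusted p = 0.296, limma), or 4.15-fold, with exact permutation p = 0.1. Without replicate 2 it was 1.19 (adjusted p = 0.654, limma). At day 3 signals were 10866, 20321 and 12637 with saline and 14129, 4794 and 13732 with diclofenac, with a difference of -0.53 (standard error 0.64). Replicate 2 of the diclofenac group lay far below the rest, and the difference was -0.015 without it. At day 14 signals were 25468, 27019, 43278.5, 23398 and 33822 with saline and 17900, 37640, 108271, 24993 and 16979 with diclofenac. The difference was 0.08 (standard error 0.44) and turned to -0.37 without replicate 3, the liver with the highest Igfbp1 signal of all 22.

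Igfbp2 (chr1:72824480-72852474) encodes a binding protein that is abundant in liver and serum. Its signals at day 1 were 15880, 12025 and 12398 in saline livers and 19487, 9135 and 9747 in diclofenac treated livers, a difference of -0.15 (standard error 0.26). At day 3 they were 15824, 17786 and 17525 with saline and 10579, 8944.5 and 16469 with diclofenac. The log2 difference at day 3 was -0.55 (standard error 0.26, adjusted p = 0.477, limma), and replicate 3 of the diclofenac group lay within the saline range. At day 14 they were 28969, 24073, 30061, 35464 and 31202 with saline and 20770, 21371, 3720, 29609 and 19947 with diclofenac. In 4 of 5 diclofenac treated livers Igfbp2 lay below all saline livers. The day 14 difference was -0.91 (standard error 0.46, adjusted p = 0.495, limma) and -0.39 without replicate 3 (adjusted p = 0.214). The exact permutation test at day 14 gave p = 0.0238 (adjusted p = 0.300 over all genes).

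Igfbp4 (chr11:99040005-99052655) encodes a binding protein that mostly inhibits IGF. Its signals lay between 26977 and 31659 in the 6 saline livers of days 1 and 3 and between 27405 and 31360 in the 6 diclofenac treated livers. At day 14 they lay between 38282 and 45206 with saline and between 35655 and 44685 with diclofenac. The log2 differences were -0.05, 0.05 and 0.00 (standard errors 0.09, 0.09 and 0.10), the narrowest errors among the binding proteins. All 6 probe sets of Igfbp4 were lower with diclofenac at day 1, by -0.32 to -0.03. The -0.32 rests on replicate 2, which had 12709 in that probe set. The other treated livers, at 25090 and 23300, lay within its saline range of 21123 to 26547. The 6 probe sets lay between -0.24 and 0.09 at day 3 and between -0.20 and 0.07 at day 14. The smallest adjusted p among them was 0.529, 0.635 and 0.505 on the 3 days (limma).

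**Figure D3:**
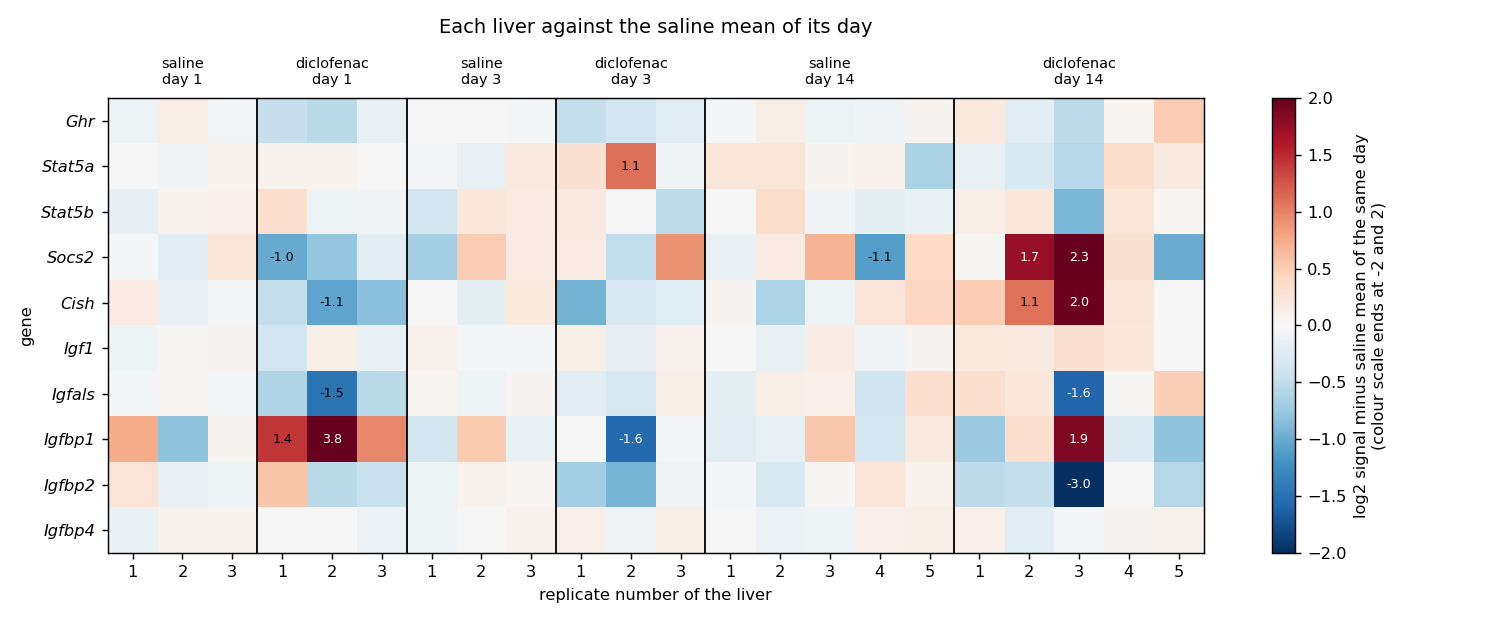
Log2 signal of each liver minus the saline mean of its day for the 10 genes (rows) in the 22 livers (columns, by group and replicate); red is above and blue below the saline mean, the colour scale ends at -2 and 2, and differences of at least 1 in either direction are printed. Day 14 replicate 3 of the diclofenac group has the most printed values, with Socs2 and Cish high (2.34 and 1.96) and Igfbp2 and Igfals low (-3.00 and -1.59).

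Day 14 replicate 3 and day 1 replicate 2, which share a high neutrophil marker sum, also shared high Igfbp1 (1.86 and 3.78 on the log2 scale against the saline mean of their day) and low Igfals (-1.59 and -1.46). They differed in Cish, which was 1.96 above the saline mean in the former and -1.05 from it in the latter, and in Socs2, at 2.34 and -0.77. Ghr was low in both, at -0.53 and -0.54. Day 14 replicate 3 also had the highest macrophage, stellate cell and cholangiocyte marker sums of its group. These were 37274, 22260 and 2650, against at most 12363, 11908 and 781 in the other livers of that group. In day 1 replicate 2 the same sums were 35928, 13219 and 641, against at most 41518, 12964 and 744 in the other livers of its group. The part of neutrophil RNA or of other cell makeup in the members' values was not tested.

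Averaged with equal weight over the 3 days, the effect of diclofenac passed limma's test for 0 of 10 members and for 224 of 13340 genes (1.68%). The mean effect on Ghr was -0.25 (standard error 0.09, adjusted p = 0.181, limma). By the exact permutation test within days, Ghr had p = 0.0187 (adjusted p = 0.138 over all genes) and Igfbp2, with a mean effect of -0.54, had p = 0.0196 (adjusted p = 0.142). By that test 21.9% of all genes had p under 0.05 and 634 passed after adjustment. Averaged over days 1 and 3 only, a comparison that was added with the data in view, Ghr fell by 0.37 on the log2 scale (standard error 0.08, adjusted p = 0.0483, limma). It was the only member to pass among 87 of 12884 genes (0.675%). Cish, at -0.64 (standard error 0.14, adjusted p = 0.0529), and Igfals, at -0.51 (0.14, adjusted p = 0.117), did not pass. The call of Ghr lies close to the threshold: it was kept in 5 of 10 other settings and in 3 of 12 fits that left out 1 array, with adjusted p between 0.00995 and 0.174. It held without replicate 2 or 3 of the diclofenac group of day 1 or replicate 3 of that of day 3, and was lost without any other single array. For Ghr and Cish the exact permutation test within days 1 and 3 gave p = 0.005, the smallest it can give, which 3.54% of all genes reached and none passed after adjustment.

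The effects at different days were compared directly. Between days 3 and 1 the effect differed for 0 of 10 members and 0 of 12884 genes (0%, limma), and 2 members had an unadjusted p under 0.05 against 5.39% of all genes. These were Igfbp1, whose effect was lower at day 3 by -2.58 (standard error 0.91, adjusted p = 0.881), and Igfals, whose effect was higher by 0.72 (0.28, adjusted p = 0.881). Without replicate 2 of day 1 these values were -1.72 and 0.43. The mean log2 signal of Igfbp1 was 13.33 at day 1 and 13.25 at day 3 with diclofenac, and 11.28 and 13.78 with saline. For Igfbp1 the saline mean therefore moved more than the diclofenac mean. For Igfals the means were 9.70 and 10.23 with diclofenac, and 10.57 and 10.37 with saline. Between day 14 and the mean of days 1 and 3 the effect differed for 0 of 10 members and 3 of 13340 genes (0.0225%), and 1 member had an unadjusted p under 0.05 against 6.45% of all genes. This was Cish, lower with diclofenac at the early days and higher at day 14, with a difference of effects of 1.40 (standard error 0.37, unadjusted p = 0.00125, adjusted p = 0.438, limma). It was 1.04 without both livers that stand apart (adjusted p = 0.220).

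The saline livers themselves differed by day. Between saline livers of days 1 and 3, 0 of 10 members and 28 of 12884 genes passed (0.217%). Igfbp1 was 5.66-fold higher at day 3 (log2 difference 2.50, standard error 0.64, adjusted p = 0.152, limma), with no overlap between the 1428 to 4151 of day 1 and the 10866 to 20321 of day 3. It passed when diclofenac replicate 2 of day 1 was left out of the model (adjusted p = 0.0225). Ghr was 0.29 higher at day 3 (standard error 0.11, adjusted p = 0.347).

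Between saline livers of day 14 and those of days 1 and 3, also added with the data in view, 7 of 10 members passed, as did 3787 of 13340 genes (28.4%). Both feedback inhibitors fell. The log2 difference of Cish was -3.00 (standard error 0.26, adjusted p = 1.08e-07, limma), or 8.03-fold, and that of Socs2 -2.95 (0.45, adjusted p = 6.08e-05), or 7.71-fold. No saline liver of day 14 exceeded 337 for Cish or 738 for Socs2, against at least 1553 and 1991 at the early days. Ghr fell by 0.75 (standard error 0.13, adjusted p = 0.000225). Igfbp1 rose by 2.33 (standard error 0.49, adjusted p = 0.00118), Igfbp4 by 0.50 (0.08, adjusted p = 0.000116), Stat5b by 0.61 (0.18, adjusted p = 0.0168) and Igfbp2 by 0.98 (0.36, adjusted p = 0.0475). Igf1 (0.09), Igfals (-0.45) and Stat5a (-0.04) did not pass with the probe set used. The call of Igfbp2 was kept in 5 of 22 fits that left out 1 array, and that of Stat5b in 20 of 22.

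The labels give no run or scan of the arrays. The 18S control probe sets averaged 12.05, 14.68 and 15.35 on the log2 scale in saline arrays of days 1, 3 and 14, and the part of such array differences in the comparison of days was not tested. The probe sets of a gene also went apart in this comparison. Of the 3 for Ghr, 2 fell (-0.75 and -0.55) and the one of lowest signal rose by 2.41. Of the 4 for Igf1, 3 were lower at day 14, and 1 of them fell by 0.71 (adjusted p = 0.00479 over all probe sets, limma), against 0.09 for the probe set used. The second probe set of Stat5a was below the array median in all saline livers of days 1 and 3 (3.83 to 66.7) and had signals of 84.3 to 135 at day 14, too near background for a fold. All 6 probe sets of Igfbp4 rose, by 0.50 to 1.98, and all 5 of Socs2 that could be tested were below 0, from -3.04 to -0.16. Those 5 include the probe sets of Socs2 near background.

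**Figure D4:**
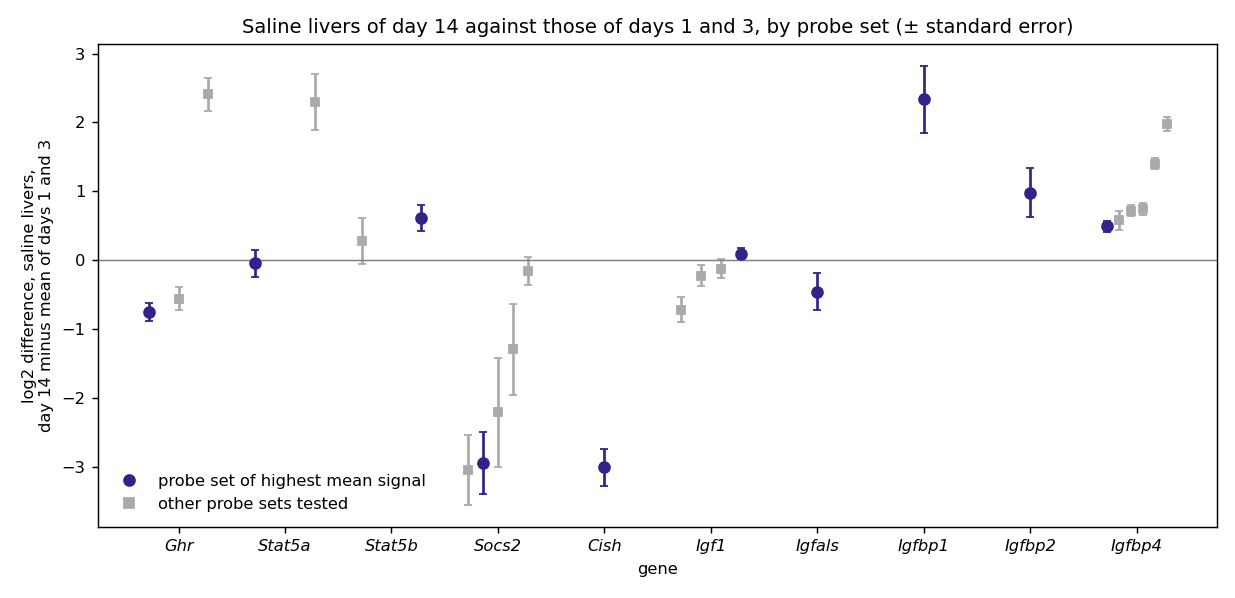
Log2 difference between saline livers of day 14 and the mean of the saline livers of days 1 and 3 for every tested probe set of the 10 genes; dark circles are the probe set of highest mean signal and grey squares the others, with standard errors as bars. Cish and Socs2 lie at -3.00 and -2.95, Igfbp1 at 2.33, the probe sets of Ghr lie between -0.75 and 2.41, and the grey square of Stat5a rests on day 1 and 3 signals below the array median.

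Other genes of the pathway were counted in 7 lists, described by counts only. In the list of growth hormone receptor signalling, 0 of 19 genes tested at days 1 and 3 and 0 of 19 at day 14 passed on a single day. In the mean over 3 days 1 of 20 passed, against 1.68% of all genes, and the list median was 0.04 against -0.0050 over all genes. That gene was Stat3, the factor of interleukin-6 signalling, which rose by 0.91 (standard error 0.18, adjusted p = 0.0106, limma). Its signals were 1877, 1839 and 2193 in saline livers and 2924, 5137 and 2955 in diclofenac treated livers of day 1, and 2156, 2636 and 1924 against 5365, 4508 and 3807 at day 3. The groups did not overlap on those days, as in 16.3% of all genes at day 1 and 20% at day 3. Stat3 was named for passing on these same livers, so the lack of overlap is no separate support. At day 14 its groups overlapped, with 1983 to 3104 in saline and 2618 to 10311 in diclofenac treated livers, and the effect was 0.86 (adjusted p = 0.356). The mean effect was 0.72 without the 2 livers that stand apart (adjusted p = 0.000603). In that setting, where 178 genes passed at day 3, its day 3 effect of 1.02 also passed (adjusted p = 0.00404, limma). Socs3, the inhibitor that STAT3 induces, had effects of 1.33, 1.86 and 2.32 at days 1, 3 and 14 and a mean of 1.84 (standard error 0.50, adjusted p = 0.0619), which did not pass. Without those livers the mean was 1.36 and passed (adjusted p = 0.0408).

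**Figure D5:**
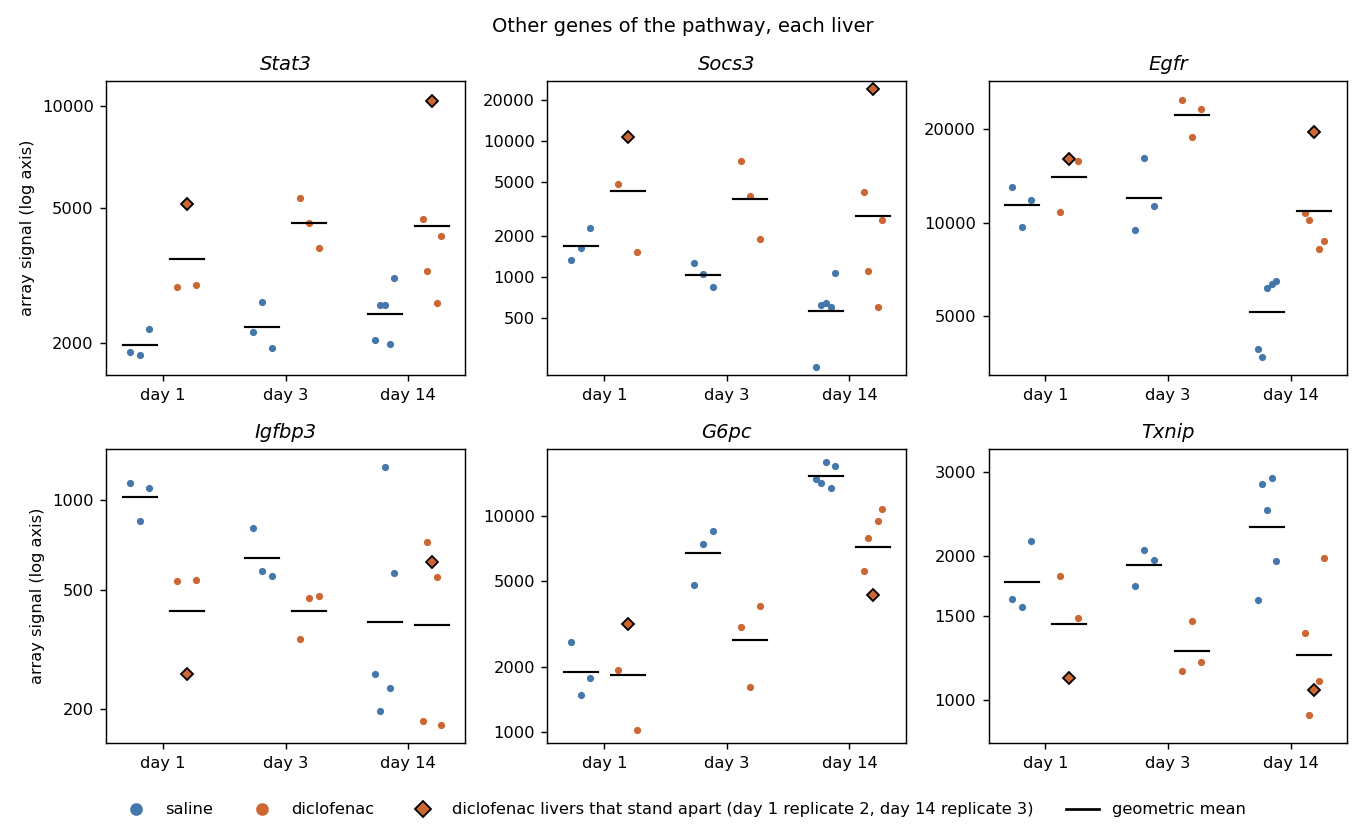
Array signal (log axis) of Stat3, Socs3, Egfr, Igfbp3, G6pc and Txnip, 1 point per liver, by day, with saline in blue, diclofenac in orange, outlined diamonds for the 2 livers that stand apart and bars for geometric means. Stat3 is higher in all diclofenac treated livers than in all saline livers at days 1 and 3, and G6pc is lower in all diclofenac treated livers than in all saline livers at days 3 and 14. Of all genes, 16.3%, 20% and 3.78% had groups that did not overlap at days 1, 3 and 14.

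Among other IGF ligands, receptors and binding proteins, 0 of 11 tested at days 1 and 3 and 0 of 10 at day 14 passed on a single day, and 0 of 12 passed in the mean over 3 days, where Igfbp3 had -0.63 (adjusted p = 0.294, limma). In the mean of days 1 and 3, which was added with the data in view, 1 of 11 passed, against 0.675% of all genes. Igfbp3, the main carrier of IGF1 in serum, which non-parenchymal liver cells make, fell by 0.93 (standard error 0.19, adjusted p = 0.0440, limma). Its signals were 1137, 850 and 1091 in saline livers and 536, 262 and 539 in diclofenac treated livers of day 1. At day 3 they were 804, 577 and 553 against 342, 468 and 477. The groups did not overlap on either day, as in 16.3% of all genes at day 1 and 20% at day 3. Igfbp3 was named for passing on these same livers. At day 14 the effect on Igfbp3 was -0.03.

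In the list of STAT5 targets of liver, 1 of 11 genes passed in the mean over 3 days, against 1.68% of all genes, with a list median of 0.11. Egfr, the receptor of epidermal growth factor, rose by 0.75 (standard error 0.15, adjusted p = 0.0132, limma), and by 0.65 without the livers that stand apart. In that setting its effects of 0.89 at day 3 and 0.87 at day 14 passed (adjusted p = 0.0444 and 0.0425, limma), as did 178 and 123 genes in all. Among male-biased genes that depend on growth hormone pulses, 1 of 17 was past the test in the mean over 3 days. This was Moxd1, which was tested only because of its diclofenac signals of day 14 (54.2 to 1026), while all saline signals were at most 33.5, far below the array medians, so that no fold is given and the count is no support for a change in the list. The list median was -0.16. Among female-biased genes 0 of 15 passed, with a median of 0.12 and the largest differences in Cyp17a1 (0.53, adjusted p = 0.364) and Vldlr (-0.46, adjusted p = 0.468). At days 1 and 3, 0 of 16 male-biased and 0 of 14 female-biased genes passed.

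Of 13 targets of insulin and FOXO1, 0 passed on a single day and 2 fell in the mean over 3 days, where 1.68% of all genes passed. G6pc, the enzyme that releases glucose from glucose-6-phosphate, fell by 0.82 (standard error 0.20, adjusted p = 0.0403, limma), and Txnip, an inhibitor of glucose uptake, fell by 0.59 (0.13, adjusted p = 0.0240). The effect on G6pc was -0.04 (adjusted p = 0.976), -1.33 (0.231) and -1.10 (0.119) at days 1, 3 and 14, and none of these passed alone. Without the livers that stand apart, where 123 genes passed at day 14, the day 14 effect on G6pc was -0.91 and passed (adjusted p = 0.0266, limma). At day 1 its signals were 2605, 1483 and 1785 with saline and 1942, 3180 and 1022 with diclofenac, and the groups overlapped. Its day 14 signals were 14814, 14316, 17828, 13467 and 17054 with saline and 5572, 7928, 4308, 9454 and 10808 with diclofenac. These did not overlap, as in 3.78% of all genes on that day. Both calls in the mean over 3 days, of G6pc and Txnip, were kept without the livers that stand apart (-0.89 and -0.51). The list median was -0.30, with 9 of 13 genes below 0. Of 14 other genes that rise under stresses that also induce Igfbp1, 0 passed in that mean, with a median of -0.013 and the largest differences in Cdkn1a (0.79, adjusted p = 0.0996) and Hk2 (0.64, adjusted p = 0.203).

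Between saline livers of day 14 and those of days 1 and 3, where 28.4% of all genes passed, the lists had the following counts. Among STAT5 targets 1 of 11 rose and 6 fell, led by Onecut1 (-3.29, adjusted p = 2.40e-06, limma), a liver transcription factor, and with Lifr (-1.42) and Egfr (-1.19). Among male-biased genes 2 of 17 rose and 3 fell, led by Hsd3b5, a steroid dehydrogenase (-4.94, adjusted p = 0.00169), and among female-biased genes 2 of 15 rose, led by Cyp17a1 (3.12, adjusted p = 1.54e-05). Among insulin and FOXO1 targets 4 of 13 rose, with G6pc at 2.11, and 3 fell, with Srebf1, a lipogenic factor, at -2.21. Among genes of stresses that induce Igfbp1, 7 of 14 rose and 3 fell, led by Cdkn1a, a cell cycle inhibitor (3.55), and Fgf21, a fasting hormone (2.99). In growth hormone receptor signalling 1 of 20 rose (Socs6, 0.78), and among IGF genes 2 of 12 rose and 1 fell. The shares that passed among receptor signalling, IGF, male-biased and female-biased genes lay near or below that of all genes.

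Markers of cell types were counted in the same way, beside 1.68% of all genes that passed in the mean over 3 days. Of 10 Kupffer cell and macrophage markers, 0 passed limma's test on any day or in the mean over 3 days. At days 1, 3 and 14, 9, 10 and 10 were above 0. Their summed signals were 17054 to 27352 in saline and 29080 to 41518 in diclofenac treated livers at day 1. They were 22390 to 24271 against 25767 to 37590 at day 3, and overlapped at day 14 (4651 to 12876 against 8464 to 37274). Of 7 neutrophil markers tested, 0 passed on any day and 2 rose in the mean over 3 days, with list medians of 1.49, 0.28 and 1.16 at days 1, 3 and 14. Endothelial markers had 1 of 10 fall in that mean, and so did stellate cell markers. The stellate cell sums were 16165 to 20775 in saline and 11367 to 13219 in diclofenac treated livers at day 1. They overlapped at day 3 (13669 to 16374 against 12452 to 17838) and at day 14 (10234 to 15009 against 5882 to 22260). Hepatocyte markers had 0 of 10 pass in the mean over 3 days, with medians of 0.02, 0.15 and 0.15 on the 3 days. In saline livers of day 14 against the early days, where 28.4% of all genes passed, 9 of 10 hepatocyte markers rose, and 8 of 10 macrophage and 6 of 10 endothelial markers fell. T, NK and B cell (4 or 5 tested), cholangiocyte (3 or 4) and pancreatic acinar markers (3 or 4) had 0 passing differences with diclofenac. Of 2 adipocyte markers tested 1 fell in the mean over 3 days. The summed signal of 4 adipocyte markers was 525 to 1202 in saline livers of day 14 and 101 to 284 in diclofenac treated livers of that day. In saline livers of days 1 and 3 it was 131 to 192 and 118 to 167, so the day 14 saline livers stood above all the others. Array controls for RNA integrity, which set signals near the ends of control transcripts against each other on the log2 scale, averaged 0.74 with diclofenac and 0.62 with saline at day 14. The part of cell makeup or array quality in the members' differences was not tested.

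Likeness to the members was measured as Pearson's r over the 22 livers, each signal taken against the saline mean of its day, among 11692 genes, and is a description of livers that share arrays and outlying values. The genes most like Ghr were Ggact (0.883), Cyp2d13 (0.866) and Ube2h (0.859), which held at 0.845, 0.876 and 0.793 without the 2 livers that stand apart. Those most like Igfbp4 were Cox6a1 (0.866), Gpx1 (0.841) and Apoh (0.824), also little changed without them (0.881, 0.845 and 0.861). The likeness of Igfbp1 to Gde1 (0.844), Cd93 (0.839) and Clic4 (0.833) rested on those livers, at 0.462, 0.529 and 0.622 without them. For Igfbp2 the first was Cyp2u1 (0.948, and 0.797 without them), for Igfals Immp1l (0.933 and 0.791), for Cish Tnks2 (0.880 and 0.743) and for Stat5b Dock5 (0.880 and 0.784). For Igf1 it was Med16 (0.809 and 0.758), for Socs2 Lgals1 (0.782 and 0.605) and for Stat5a Hoxc6 (0.734 and 0.677).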

How the data were processed

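Liver RNA of 22 mice was measured on 1 array each. The authors processed the arrays with MAS5 (submitters' processing notes) and deposited linear signal intensities, scaled so that the mean of each array, after trimming 2% at either end, is 500.0. Probe sets were named by GEO's platform annotation, which can be old: 34958 carry 1 gene symbol and were used, while 932 carry several and 9211 carry none.

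Intensities were taken to log2, and each gene was represented by its brightest probe set on average. Genes above the array median on 3 or more arrays of a model were tested. Differences were fitted with limma 3.58.1 under R 4.3.3 (moderated variances with a trend, two-sided, Benjamini-Hochberg adjusted p under 0.05 over all genes tested), where days 1 and 3 (12 arrays) shared a model, day 14 (10 arrays) had its own, and comparisons across them used all 22. The exact permutation tests were two-sided, with a smallest possible p of 0.1 for 3 against 3 livers and 0.0079 for 5 against 5. Figures were drawn with matplotlib 3.10.9 and tables written with scipy 1.17.1, numpy 2.4.6 and pandas 2.3.3 in Python 3.11.15. On simulated data with 100 genes changed 2-fold and 100 changed 4-fold, the fit recovered 42.9%, 43.3% and 70.4% of the former and 78%, 76% and 92.6% of the latter in the models of days 1, 3 and 14. The simulated noise was normal, independent between genes and equally wide in every group. It held no livers in which many genes shift together, so these shares need not hold for the real data.

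The members and gene lists were chosen with earlier results of these data known. Named by rule were the 10 members, up to 4 genes of each pathway list past the test (up to 2 where none pass), and for each member the 3 genes of highest correlation. Socs3 was chosen after values were seen, as were the mean of days 1 and 3, the comparison of saline livers of day 14 with earlier days, and the setting without the 2 outlying livers. Positions and promoters are those of RefSeq on GRCm38.p6, with promoters for 9 of the 10 members (not Socs2). Replicate numbers were not taken to pair animals, since residuals of a saline and a diclofenac treated liver with the same number correlated above 0.1 in 1 of 11 cases. Alternatives were quantile normalization, a higher filter or none, median centring, the array median added before log2, other treatments of probe sets, array weights, a term for replicate number, other sets of arrays in the model, leaving out each array and the methods' t-test. Other measurements of the study were not analysed here.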

Additional observations from a re-analysis of the deposited data

Results flagged for a closer look

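In groups of 5 livers, the distance of the highest or lowest liver from its nearest neighbour, as a share of the group's range, was compared with Dixon's critical value of 0.71. Chance gives such a value in about 1 of 20 groups, and 20 were tested. It was exceeded in 4, of which 3 are the same liver, diclofenac day 14 replicate 3. In that liver Igfals was 345 (share 0.782), Igfbp2 was 3720 (0.810) and Stat5b was 743 (0.8288), each the lowest of its group. The remaining one is saline day 14 replicate 5, where Stat5a was 274, the lowest of its group (0.778).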

How the results depend on the processing

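For the 10 members, 49 differences were recomputed under each alternative, giving 1165 values, of which 1067 kept direction and side of the threshold, 38 lost a call, 10 gained one and 50 changed sign. No member passed the adjusted test in a single-day comparison under any alternative. Signs changed in 14 differences, most of them diclofenac effects near 0. Under quantile normalization Igf1 and Igfbp4 at day 3 were -0.046 and -0.070 and Igfbp1 at day 14 was -0.037. With arrays centred on their median, Igf1 and Igfbp4 at day 3 were -0.044 and -0.0085 and Igfbp4 at day 14 was 0.015. With the probe sets of a gene averaged, Stat5b at days 1 and 3 was -0.15 and 0.023, Igf1 and Socs2 at day 3 were -0.038 and -0.40, Ghr at day 14 was -0.087, and Ghr in saline livers was -0.0075 between days 3 and 1 and 0.37 between day 14 and the early days, where its probe sets differ in sign. With array weights, Igfals, Igfbp1, Igfbp4 and Stat5b at day 14 were 0.18, -0.23, 0.0055 and 0.12. Without the 2 outlying livers, Igfbp2 at day 1 was 0.048, and Igfals, Igfbp1, Igfbp4, Stat5a and Stat5b at day 14 were 0.26, -0.37, 0.0032, 0.019 and 0.16. Leaving out 1 array gave, at day 1, -0.50 to 0.048 for Igfbp2 and -0.069 to 0.14 for Stat5b, at day 3, -0.038 to 0.10 for Igf1, -0.17 to 0.53 for Socs2 and -0.30 to 0.081 for Stat5b, and at day 14, -0.13 to 0.13 for Ghr, -0.26 to 0.26 for Igfals, -0.37 to 0.30 for Igfbp1, -0.033 to 0.050 for Igfbp4, -0.26 to 0.019 for Stat5a and -0.13 to 0.16 for Stat5b.

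Counts of all genes past the test depended on the setting, and the cause was not tested beyond the arrays left out. At day 1 the count of 0 became 188 with the methods' t-test, 0 after adjustment, and 0 to 5 with 1 array left out. At day 3 the count of 26 became 16 with no filter, 13 with the mean of probe sets, 156 with array weights, 3 with the replicate block, 1 with all 22 arrays in one model, 145 with the arrays of day 3 alone, 178 without the outlying livers, 321 with the methods' t-test and 0 after its adjustment, and 0 (without day 3 saline replicate 3 or day 3 diclofenac replicate 1) to 178 (without diclofenac replicate 2 of day 1) with 1 array left out. At day 14 the count of 0 became 3 with quantile normalization, 15 with median centring, 2 with the array median added, 109 with array weights, 1 with the replicate block, 133 with all 22 arrays, 123 without the outlying livers, 284 with the methods' t-test and 0 to 123 (without diclofenac replicate 3) with 1 array left out. For the day 3 effect minus the day 1 effect it was 0 to 2 with 1 array left out. Between saline livers of days 3 and 1 the count of 28 became 14 with no filter, 2 with the mean of probe sets, 103 with every probe set, 224 with array weights, 4 with the replicate block, 120 without the outlying livers and 0 (without saline replicate 1 or 3 of day 1) to 120 (without diclofenac replicate 2 of day 1) with 1 array left out. For the mean over 3 days, 224 became 484 with array weights, 365 without the outlying livers and 108 (without diclofenac replicate 1 of day 3) to 536 (without diclofenac replicate 3 of day 14) with 1 array left out. For the day 14 effect minus the early effects, 3 became 0 with no filter, median centring or every probe set, 1 with the mean of probe sets or the replicate block, 14 with array weights, 11 without the outlying livers and 0 to 17 (without diclofenac replicate 3 of day 14) with 1 array left out. For the mean of days 1 and 3, 87 became 190 with array weights, 56 with the replicate block, 137 without the outlying livers and 16 (without diclofenac replicate 1 of day 3) to 326 (without diclofenac replicate 3 of day 1) with 1 array left out. For saline livers of day 14 against the early days, 3787 became 7474 with every probe set and 3265 to 4684 with 1 array left out. Under the replicate block Ghr in the mean of days 1 and 3 and Igfbp2 in saline livers of day 14 (adjusted p = 0.194) were not called.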
